A study of Xenopus tropicalis with 2 samples.

Results

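The Notch receptors, their Delta and Jagged ligands, the Fringe and Numb modifiers and the Hes and Hey genes were followed through the cell states of the early Xenopus tropicalis gastrula. The members were all genes whose symbol begins with notch, dll, jag or hes and a digit, or with dlc, hey, lfng, mfng, rfng or numb. They came to 33 of the 21821 genes in the count matrix, and 21 of the 33 had at least 50 transcripts (unique molecular identifiers, UMIs) in nuclei with at least 1500 detected genes. The symbols alone chose the members, and the UMI minimum decided which of them are described by state. One member, dlc1, shares only its first letters with the Delta gene dlc. It is kept in the counts but is no Notch gene.

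RNA was counted in single nuclei of whole wild-type embryos at stage 10.5, with no treatment or mutant. Synchronised embryos were pooled, so the level in any state is a mean over many embryos. The nuclei were fixed, barcoded by split-pool ligation and divided into 2 sublibraries, which are technical replicates of 1 pool. No test of any difference was therefore possible: errors are the SD over the 2 sublibraries and exact 95% Poisson intervals, both of which cover technical and counting error only.

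Notch receptors are cut after they bind a Delta or Jagged ligand on a neighbouring cell, and the freed intracellular domain joins Rbpj and Mastermind in the nucleus to activate genes of the Hes and Hey families. Hes and Hey proteins are transcriptional repressors. In Xenopus the pathway is best known for spacing primary neurons in the neural plate and ciliated cells in the epidermis by lateral inhibition, and for segmentation of the paraxial mesoderm.

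The sublibraries held 44341256 and 44026454 UMIs, and 4245 and 4229 of their barcodes had at least 1500 genes. Among these, 206 well combinations occurred in both sublibraries. After removal of 784 likely doublets, 7690 nuclei remained, with a median of 4504 UMIs in sublibrary 1 and 4518 in sublibrary 2. Clustering without the member genes or their pathway partners gave 15 clusters. Here each cluster is called by its leading gene. Inner ectoderm-like nuclei were the LOC108648189 and pde7b clusters (neural) and the pax3 and mettl24 clusters (non-neural). The pax3 cluster scored on both lists, with 0.85 for non-neural and 0.41 for neural markers, and pax3 itself is a neural marker here. The pde7b cluster had a neural score of 0.35. Outer ectoderm-like nuclei were the f3 cluster and the fes cluster, of which only the fes cluster scored as non-neural. The lhx6 and shh clusters were dorsal mesoderm-like and the cdx2 cluster was ventral mesoderm-like. The foxp2 cluster was dorsal endoderm-like and counted as inner, and the slc12a3l cluster was ventral endoderm-like and counted as outer. The side of the slc12a3l cluster was a close call, with 1.60 for ventral and 1.44 for dorsal endoderm markers. It also scored 1.16 for dorsal mesoderm markers, against 1.11 in the shh cluster. The hepacam (inner) and rasal1 (outer) clusters were rich in dscaml1 and tp73 and have no germ layer name. A cluster counted as inner unless its score on the outer ectoderm markers exceeded that on the inner ectoderm markers. Both scores were negative in the foxp2 cluster (inner -0.47, outer -0.85) and in the hepacam cluster (inner -0.08, outer -0.41). The rspo3 cluster raised 8 of 8 ventral mesoderm markers, but 2 endoderm markers stood among its 10 leading genes against 1 of its own, and it stays unnamed. A cluster of 257 nuclei with a median doublet score of 0.115 was left out, which leaves 14 states.

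**Figure D1:**
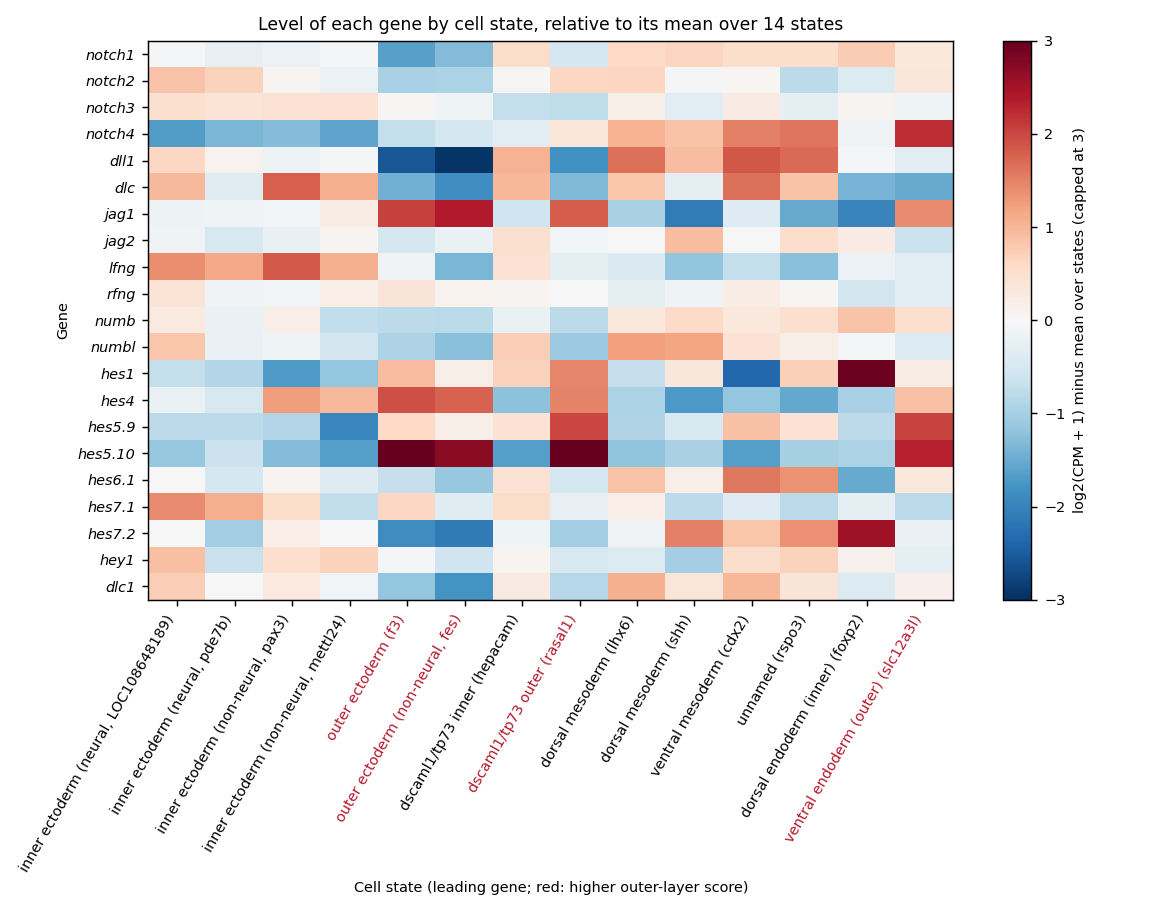
Level of the 21 genes with at least 50 UMIs (rows) in 14 cell states (columns, each with its leading gene). Colour is log2(CPM + 1) minus the gene's mean over the states, capped at 3, and red state names mark the 4 states with a higher outer-layer score. The 4 outer states are red in jag1 and hes5.10, and dll1 is blue in all of them.

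Per kilobase of gene span, introns included, dll1 had the highest nuclear level with 48.1 CPM per kb, followed by notch1 with 32.0 and lfng with 26.8. Expressed the same way, jag1 reached 3.65 CPM per kb and the fourth receptor gene, notch4, 0.13. Among the Hes genes, hes4 (known as hairy2) had 15.6 CPM per kb, hes7.2 had 14.4, hes6.1 had 10.6 and hes1 (hairy1) had 2.48. Undivided, notch1 led with 1858 CPM, against 654 for notch3 and 400 for dll1, and jag1 (143 CPM) stood above hes4 (29.8 CPM). Whether UMI counts scale with gene span was not tested. Barcodes with fewer than 300 genes were taken to hold mostly RNA outside nuclei, which was not tested. They gave members a median of 0.975 times their nuclear CPM, against 1.08 over all genes. The excess in such barcodes was 2.00-fold for hey1 and 1.90-fold for hes5.10, while notch1 had 0.716 times its nuclear level.

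The ectoderm of this embryo is already split into an outer and an inner sheet, and these layers are described first here. Of the 21 genes, 8 were at least 2-fold higher and 5 at least 2-fold lower in inner than in outer ectoderm-like nuclei. Over all 11271 genes with 50 UMIs, 6.79% were called higher and 8.54% lower, 15.3% in all. The median log2 ratio was 0.67 over the members and 0.15 over all genes. Inner nuclei carried more dll1, dlc, lfng, notch1, notch2, numbl, hes7.2 and dlc1, and outer nuclei more jag1, hes4, hes5.10, hes5.9 and hes1. With a minimum of 2000 genes per nucleus, the total fell to 7 genes, of which lfng, dlc and hes7.2 were the 3 higher in inner nuclei. Under that minimum dll1, notch1, notch2, numbl, dlc1 and hes5.9 were no longer past 2-fold.

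**Figure D2:**
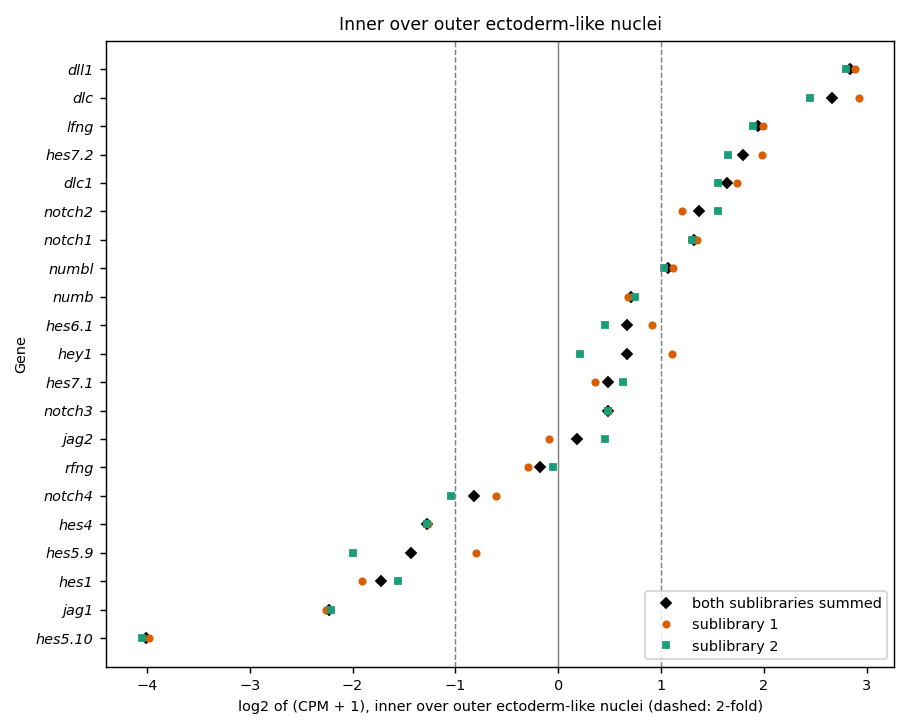
Log2 ratio of CPM + 1, inner over outer ectoderm-like nuclei, for the 21 genes, with both sublibraries summed (diamonds), sublibrary 1 (circles) and sublibrary 2 (squares). Dashed lines mark 2-fold. From -4.01 for hes5.10 to 2.84 for dll1, the sublibraries lie on the same side of 0 for every gene but jag2.

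Among the ligands, dll1, the Delta gene that marks primary neuron precursors later on, had 294.1 and 294.3 CPM in inner nuclei of the 2 sublibraries, against 38.9 and 41.5 CPM in outer nuclei. This is a log2 ratio of 2.84 ± 0.06 (SD, n = 2 sublibraries), or 7.31-fold with a counting interval of 6.51 to 8.22. The minimum of 2000 genes per nucleus gave dll1 its lowest log2 ratio, 0.78, which is under 2-fold. The second Delta gene, dlc, had 224 and 219 CPM in inner nuclei against 28.8 and 39.3 CPM in outer nuclei, and its log2 ratio was 2.66 ± 0.33. Its level was highest in the pax3 cluster, which also leads with insm1, with 373 CPM, and the pde7b cluster had 83.5 CPM. The Jagged gene jag1 ran the other way, with 84.1 and 84.2 CPM in inner nuclei against 405 and 393 CPM in outer nuclei. Its log2 ratio was -2.23 ± 0.03, so that outer nuclei held 4.74 times the level of inner nuclei. No sublibrary value of one layer lay within the range of the other for any of these 3 ligands. The second Jagged gene, jag2, had 15 UMIs in inner and 7 in outer nuclei, and their intervals overlapped. Only 11 UMIs of dll4 were found in all.

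**Figure D3:**
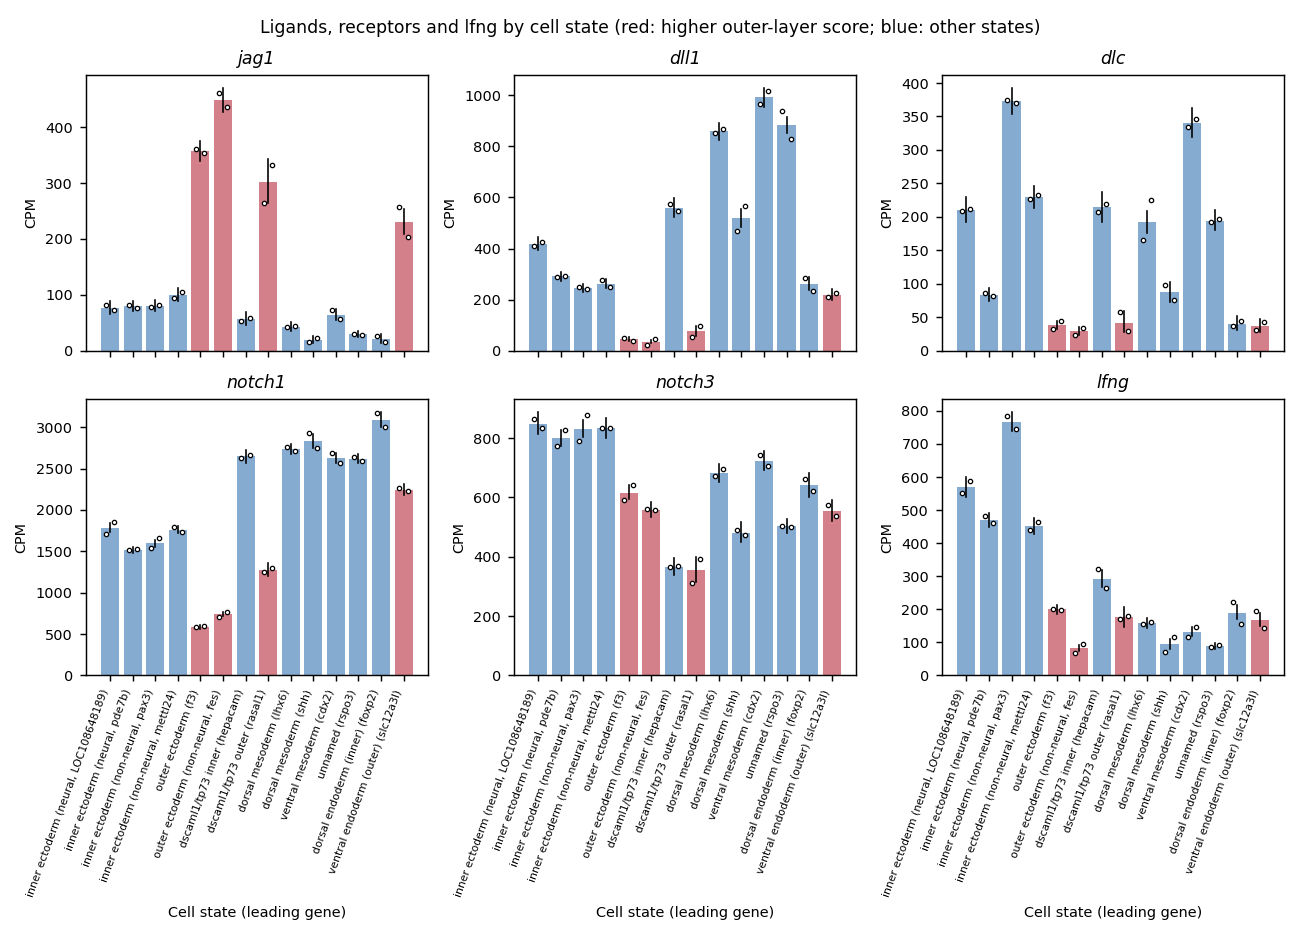
CPM of 3 ligands, 2 receptors and lfng in 14 cell states. Bars are both sublibraries summed, lines are exact 95% Poisson intervals, and circles are the 2 sublibraries; red bars mark states with a higher outer-layer score. All 4 red bars of jag1 lie at 229.7 CPM or more, and no blue bar passes 100.0.

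The same contrast between layers was seen in the shares of nuclei with a UMI, after each nucleus had been thinned to 2500 UMIs. Whether jag1 and the Delta genes exclude each other within single nuclei was not tested. In inner nuclei, 7.54% held a UMI of jag1 and none of dll1 or dlc, 48.1% held dll1 or dlc and no jag1, and 10.5% held both kinds. Outer nuclei gave 51.5% with jag1 alone, 5.24% with a Delta gene alone and 6.33% with both kinds. Median depths were close, at 4300 UMIs per inner nucleus and 4453 per outer nucleus, and no nucleus was too shallow to be thinned. The share of nuclei with neither kind was 33.9% in inner and 36.9% in outer nuclei. Before thinning, a UMI of jag1 was found in 29.0% of inner and 75.4% of outer nuclei. The lowest share for jag1 in any state was 2.95% of thinned nuclei, in the shh cluster.

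**Figure D4:**
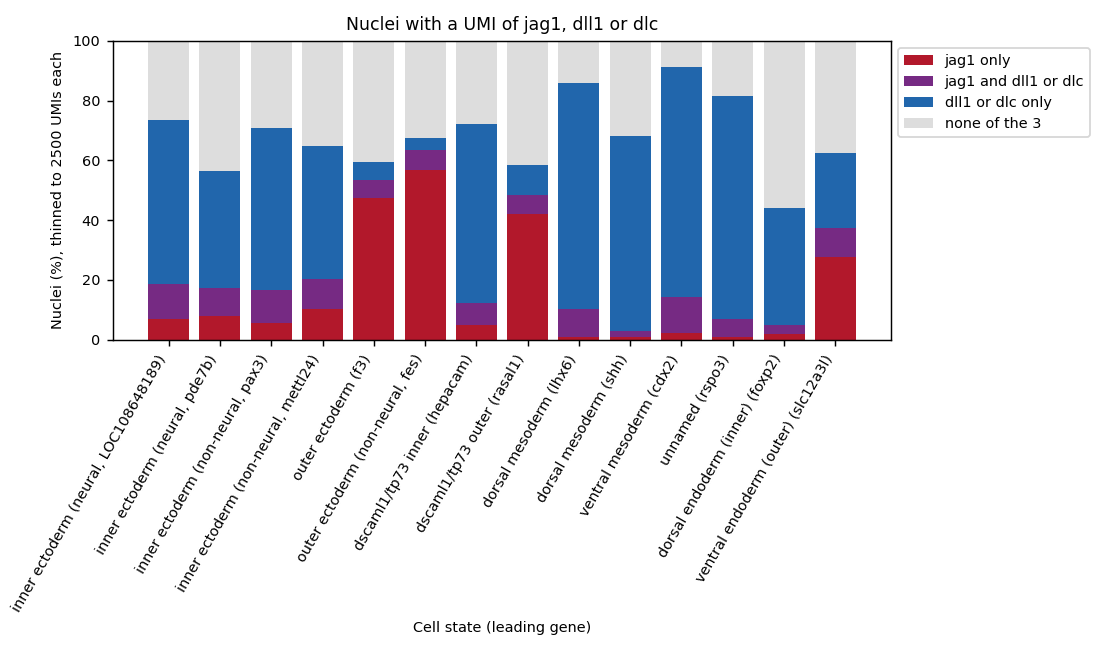
Percent of nuclei, each thinned to 2500 UMIs, with a UMI of jag1 only, of jag1 and a Delta gene (dll1 or dlc), of a Delta gene only, or of none, in 14 cell states. In the fes cluster 56.7% held jag1 only, and in the cdx2 cluster 76.9% held a Delta gene only.

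Of the receptors, notch1 had 1623 and 1669 CPM in inner nuclei and 638 and 675 CPM in outer ones, for a log2 ratio of 1.32 ± 0.03. Every thinned nucleus of the shh and foxp2 clusters held a notch1 UMI, and 96.8% of inner and 67.1% of outer ectoderm-like nuclei did. For notch2 the level in inner nuclei was 74.4 ± 0.65 CPM, against 28.1 ± 4.8 CPM in the outer layer. The receptor notch3 differed less, with 826 ± 25 CPM in inner nuclei against 590.1 ± 17.5 CPM in outer nuclei (log2 ratio 0.48). With 15 UMIs in inner and 22 in outer nuclei, notch4 gave intervals that overlapped.

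Fringe enzymes add sugars to Notch and shift its response between Delta and Jagged ligands. Lunatic fringe, lfng, had 571 and 561 CPM in inner nuclei against 143 and 150 CPM in outer nuclei, and its log2 ratio was 1.94 ± 0.07. It was highest in the pax3 cluster at 767 CPM and lowest in the fes cluster at 82.5 CPM. Radical fringe, rfng, was at 8.49 CPM in the inner layer and 9.75 CPM in the outer layer, and its intervals overlapped in all 6 comparisons made here. Numb proteins bind Notch and restrain it in one daughter of a dividing cell. For numbl the log2 ratio was 1.07 ± 0.06 and for numb 0.71 ± 0.05.

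The Hes genes fell on both sides. The clearest was hes5.10 (known as esr-6e), with 0.46 CPM in inner nuclei of each sublibrary against 22.0 and 23.1 CPM in outer nuclei. There were 6 UMIs in inner and 178 in outer nuclei, a log2 ratio of -4.01 ± 0.05. After thinning, 0.148% of inner and 5.50% of outer nuclei held a UMI of it. For hes4, inner nuclei had 26.9 and 28.4 CPM and outer nuclei 66.1 and 70.3 CPM, for a log2 ratio of -1.27 ± 0.01. For hes1 there were 18 UMIs in inner and 54 in outer nuclei, with a log2 ratio of -1.72 ± 0.25. For hes5.9 the counts were 12 and 33 UMIs in inner and outer nuclei, and the SD of its log2 ratio of -1.43 was 0.84. In the other direction, hes7.2 had 29.8 ± 0.17 CPM in inner nuclei against 7.85 ± 1.45 CPM in outer nuclei, and its log2 ratio was 1.80 ± 0.23. For hes6.1, whose mouse relative opposes Hes1, the levels were 28.2 CPM (inner) and 17.3 CPM (outer), under 2-fold. Neither hes7.1 nor hey1 separated the layers beyond their intervals.

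**Figure D5:**
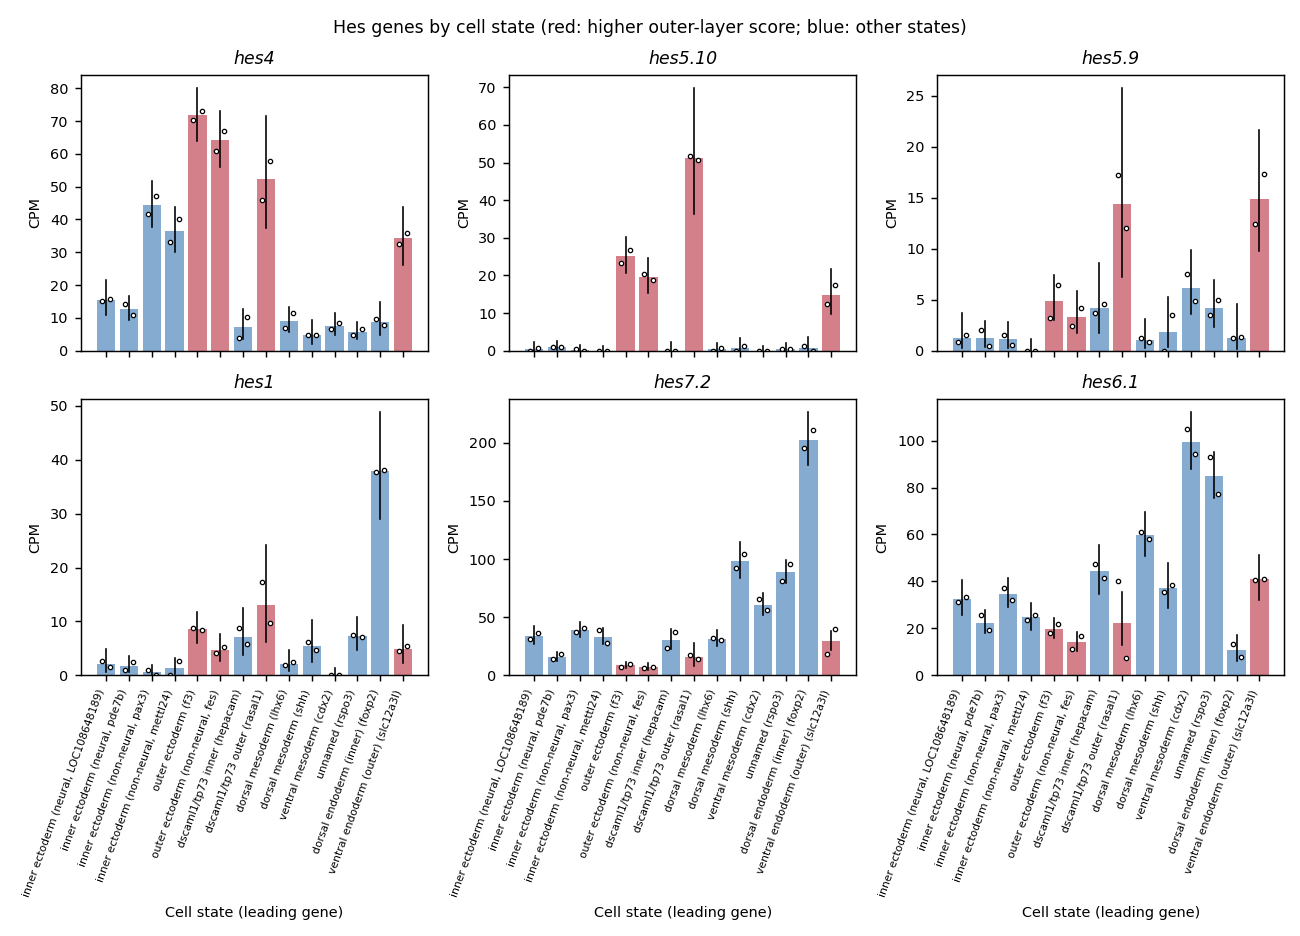
CPM of 6 Hes genes in 14 cell states, with bars for both sublibraries summed, lines for exact 95% Poisson intervals and circles for the 2 sublibraries; red bars mark states with a higher outer-layer score. The hes5.10 bars stand at 14.9 to 51.1 CPM in the red states and near 0 in the blue ones, and hes1 and hes7.2 peak in the foxp2 cluster.

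Outside the ectoderm, an inner and an outer cluster could be set side by side for the endoderm-like nuclei and for those rich in dscaml1 and tp73. Between the endoderm-like clusters, 2 members were at least 2-fold higher and 6 at least 2-fold lower in the foxp2 (inner) than in the slc12a3l (outer) cluster, where 11.6% and 17.2% of all genes were called, or 28.8% either way. These clusters also differ in the side they were named for, though the slc12a3l scores were close, so layer and side cannot be told apart. In the dscaml1 and tp73 nuclei, 5 members were higher and 4 lower in the hepacam (inner) than in the rasal1 (outer) cluster, beside 14.7% and 11.6% of all genes (26.3% either way). In all 3 comparisons the same 4 genes, jag1, hes4, hes5.9 and hes5.10, were at least 2-fold lower in the inner nuclei, and 4.46% of all genes were. For hes5.9 this rests on few counts: 7 UMIs in the hepacam and 11 in the rasal1 cluster gave overlapping intervals, and its log2 ratio by ectoderm layer was -0.80 in sublibrary 1 alone. None of the 21 was 2-fold higher in inner nuclei in all 3, as 0.958% of all genes were. Here the foxp2 and hepacam clusters count as inner only because their outer-marker scores lay below their negative inner-marker scores.

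For jag1 the foxp2 cluster had 25.5 and 15.8 CPM and the slc12a3l cluster 257 and 204 CPM. In the hepacam cluster jag1 had 53.5 and 59.0 CPM, against 264 and 333 CPM in the rasal1 cluster. The gene hes5.10 had no UMI in the hepacam cluster (0 counts, which allows up to 1.80 CPM) and had 51.7 and 50.6 CPM in the rasal1 cluster, so that the hepacam level was at least 28.4-fold lower. The rasal1 level was the highest of any state, with an interval of 36.4 to 69.9 CPM that did not overlap that of the f3 cluster, 20.6 to 30.3 CPM. Its single UMI in the foxp2 cluster stood against 27 in the slc12a3l cluster. Median doublet scores were 0.0514 in the slc12a3l and rasal1 clusters and 0.0215 in the f3 and fes clusters, and their part in these levels was not tested.

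Over the 14 states, jag1 and hes5.10 were higher in each of the 4 outer states than in each of the other 10, as were 4.25% of all genes. For dll1 the reverse held, with 34.6 to 217.6 CPM in the outer states and 243.9 to 992 CPM elsewhere, as for 2.83% of all genes. The intervals of the nearest states, slc12a3l and pax3, overlapped for dll1. The gap for hes4 was not complete, since the pax3 cluster had 44.4 CPM and the slc12a3l cluster 34.2 CPM. The levels of jag1 and hes4 moved together over the states (r = 0.89, n = 14 states) and those of jag1 and notch1 in opposite directions (r = -0.84). A higher value, r = 0.94, was found for dll1 and dlc1, which is no Notch gene. All of these values are descriptions, because the states share 1 pool of nuclei and the outer states stand apart from the rest.

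Germ layers were compared next. Of the 21 genes, 4 were at least 2-fold higher and 6 at least 2-fold lower in ectoderm-like than in mesoderm- and endoderm-like nuclei, beside 5.97% and 8.48% of all genes (14.5% either way). Their median log2 ratio was -0.40, against 0.05 over all genes. Higher in ectoderm-like nuclei were hes4, lfng, jag1 and hes5.10, and lower were notch4, hes7.2, dll1, hes6.1, notch1 and hes1. Over 17 alternatives, hes4, notch4, hes7.2 and dll1 stayed past 2-fold in each, lfng and hes6.1 in 16, jag1 and notch1 in 15, hes5.10 in 13 and hes1 in 7. These alternatives include changes of the UMI minimum and of the fold, which leave the ratios unchanged. The outcome of such settings was fixed in advance, so they add nothing to the stability of a gene. For hes1 the log2 ratio ran from -1.30 to -0.41. Of the 84 hes1 UMIs in mesoderm- and endoderm-like nuclei, 60 came from the foxp2 cluster. Dorsal mesoderm-like nuclei had 3.36 CPM of hes1, against 3.43 CPM in ectoderm-like nuclei, and ventral ones had 0 UMIs. The slc12a3l cluster had 4.97 CPM of hes1. The layers of the ectoderm contributed unequally. For jag1, inner ectoderm-like nuclei had 84.1 CPM and outer ones 399 CPM, against 73.4 CPM in the mesoderm- and endoderm-like nuclei, where 416 of the 780 UMIs came from the slc12a3l cluster. The other mesoderm- and endoderm-like clusters had 19.2 to 64.8 CPM. For lfng, with 408 CPM in ectoderm-like nuclei and 148 CPM in the others, it was the inner layer that stood above, since outer nuclei had 146 CPM. For hes5.10 only the outer layer stood above, with 22.5 CPM against 0.46 CPM in inner nuclei. The mesoderm- and endoderm-like nuclei had 2.82 CPM of hes5.10, and 27 of their 30 UMIs came from the slc12a3l cluster.

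Levels of dll1 in the mesoderm-like states were 992 ± 36 CPM in the cdx2 cluster, 858 ± 12 CPM in the lhx6 cluster and 519 ± 69 CPM in the shh cluster. The hepacam cluster, which has no germ layer name, stood above the shh cluster with 559 CPM, and their intervals overlapped. The unnamed rspo3 cluster lay between the cdx2 and lhx6 clusters, at 882 ± 77 CPM. Taken as a whole, the ectoderm-like nuclei had 199 CPM and the mesoderm- and endoderm-like ones 642 CPM, for a log2 ratio of -1.69 ± 0.05. The endoderm-like clusters did not share the high dll1 level, with 261 CPM in the foxp2 and 218 CPM in the slc12a3l cluster. Inner ectoderm-like nuclei had 294 CPM of dll1 and outer ones 40.3 CPM. The level of notch1 was 1274 CPM in ectoderm-like nuclei, against 2692 CPM in the mesoderm- and endoderm-like ones, and peaked at 3090.3 ± 117.3 CPM in the foxp2 cluster. The ectoderm-like mean pools 1646 CPM of notch1 in inner nuclei with 657 CPM in outer nuclei. For hes6.1 the cdx2 cluster led with 105 and 94.3 CPM, and the foxp2 cluster came last with 13.3 and 7.90 CPM. The slc12a3l cluster had 40.9 CPM of hes6.1 and the ectoderm-like nuclei 24.1 CPM. The receptor notch4, known in mammals from blood vessels, had 37 UMIs (1.76 CPM) in the ectoderm-like nuclei and 144 UMIs (13.6 CPM) in those of the other germ layers. Its highest level was 26.0 ± 1.5 CPM in the slc12a3l cluster.

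In the rspo3 cluster, where dll1 was high, the germ plasm gene ddx4 was high too, with 2936 UMIs. The summed level of 6 germ plasm genes ran from 66.9 CPM in the rasal1 cluster to 843 CPM in the rspo3 cluster, nearly all of it ddx4. The others were low there, with 40 UMIs of grip2 (against 222 in the lhx6 cluster), 7 of dazl, 4 of dnd1 and 0 of nanos1 and pgat. The part of ddx4-rich nuclei in the dll1 level was not tested.

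The dorsal endoderm-like foxp2 cluster held the peak of 2 Hes genes. Its hes7.2 level was 195 and 211 CPM, against 18.02 and 40.1 CPM in the slc12a3l cluster, and the next state in order, the shh cluster, had 98.5 CPM with an interval that did not overlap. Its hes1 level was 37.6 and 38.2 CPM, against 4.50 and 5.42 CPM in the slc12a3l cluster, a ratio of 7.62 with a counting interval of 3.76 to 17.5. After thinning, 35.8% of its nuclei held hes7.2 and 8.16% held hes1. In mouse, Hes7 is the oscillating repressor of the segmentation clock and Hes1 keeps many progenitors undifferentiated.

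Within the mesoderm, 1 gene was at least 2-fold higher and 3 were lower in dorsal than in ventral mesoderm-like nuclei, against 5.74% and 3.74% of all genes (9.48% either way). Lower in dorsal nuclei were dlc, with 153 ± 15 CPM against 341 ± 8.4 CPM in ventral nuclei, hes5.9 (6 against 17 UMIs) and hey1 (5 against 10 UMIs). For hey1 the intervals overlapped. Of these, dlc stayed past 2-fold in 9 of 17 alternatives, with log2 ratios from -1.59 to -0.31. For hes5.9 it was 14 of 16 and for hey1 8 of 16. Here too the alternatives include settings that leave the ratios unchanged. The ventral nuclei are the cdx2 cluster alone, and the dlc call rests on it. The unnamed rspo3 cluster scored 1.57 on ventral mesoderm markers, against 1.02 in the cdx2 cluster, and had 194 CPM of dlc. Of the dorsal clusters, lhx6 had 192 CPM of dlc and shh 87.1 CPM. The gene called higher was hes1, with 15 UMIs in dorsal nuclei and 0 in ventral nuclei, at least 3.09-fold. That direction depends on the naming: with the rspo3 cluster counted as ventral mesoderm-like, the log2 ratio of hes1 was -0.23. Without sublibrary 1, 2 genes, hes1 and hes7.1, were past 2-fold higher in dorsal nuclei. Without sublibrary 2 there were also 2, but these were hes1 and jag2. In the sublibrary left out, the log2 ratio was -0.44 for hes7.1 and -0.08 for jag2. Levels of dll1 were 732 CPM in dorsal and 992 CPM in ventral nuclei, and those of notch1 were 2773 and 2628 CPM.

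Inside the inner ectoderm, 1 gene was at least 2-fold higher and 2 were lower in neural than in non-neural nuclei, beside 1.75% and 2.32% of all genes (4.06% either way). Neural nuclei had 13.7 ± 1.3 CPM of hes4 and non-neural nuclei 40.7 ± 4.3 CPM, a log2 ratio of -1.50 ± 0.27. They had 131 ± 0.98 CPM of dlc, against 306 ± 1.5 CPM in non-neural nuclei. By cluster, dlc had 373 CPM in the pax3 and 83.5 CPM in the pde7b cluster. The LOC108648189 (neural) and mettl24 (non-neural) clusters had 210 and 229 CPM of dlc, with overlapping intervals. For hes7.1 there were 34 UMIs in neural and 13 in non-neural nuclei. Intervals of notch1, notch3 and jag1 overlapped between neural and non-neural nuclei, and dll1 had 339 CPM in neural and 253 CPM in non-neural nuclei.

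Other parts of the pathway were read from a list of 48 partners, of which 36 had enough UMIs. In the inner over outer comparison 6 were at least 2-fold higher and 3 lower, beside 6.79% and 8.54% of all genes. The ligand ubiquitin ligases split: neurl1 had 174 UMIs in inner and 4 in outer nuclei, and neurl1b had 8.26 CPM in inner nuclei against 63.1 CPM in outer nuclei. So did the Deltex genes, with dtx4 at 75.7 CPM in inner nuclei against 21.8 CPM in outer nuclei, and dtx2 at 50.01 CPM in inner nuclei against 178 CPM in outer nuclei. Furin, the protease that matures the receptor, had 519.9 CPM in inner nuclei against 146 CPM in outer nuclei. The Groucho family genes tle1, tle2 and tle5 were also higher in inner nuclei. The presenilin gene psen2, a subunit of the protease that frees the intracellular domain, had 1.45 CPM in the inner layer and 12.3 CPM in the outer layer. For rbpj the difference stayed under 2-fold, with 545 CPM in inner nuclei against 451 CPM in outer nuclei. So did that of the ligand-activating ligase mib1, with 2031 CPM against 1131 CPM. Between germ layers 3 partners were higher in ectoderm-like nuclei (neurl1b, dtx4 and furin) and 0 lower, beside 5.97% and 8.48% of all genes. Between neural and non-neural inner nuclei 0 were called either way, beside 4.06% of all genes.

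Genes of processes in which Notch acts later were also read by list. Of 7 proneural and neuronal genes with enough UMIs, neurog2, neurog3 and insm1 were at least 2-fold higher in inner than in outer nuclei and 0 were lower, beside 6.79% and 8.54% of all genes. Of 4 paraxial genes, tbx6 (59 UMIs in dorsal and 2 in ventral mesoderm-like nuclei) and myf5 (257 and 29 UMIs) were higher on the dorsal side, and msgn1 was past 2-fold lower on 0 against 4 UMIs, with overlapping intervals, beside 5.74% higher and 3.74% lower over all genes. Of 4 genes of ciliated cells and ionocytes, gmnc was higher in inner ectoderm-like nuclei (96 UMIs against 13 in outer nuclei), and foxj1 (31 against 60) and ccno (76 against 220) were lower, beside the same 6.79% and 8.54%. Of the paraxial genes, tbx6 and msgn1 were also among the markers used to name ventral mesoderm-like nuclei. Their values by side are therefore not independent of the names, and that of tbx6 ran against the name. The proneural, paraxial and ciliated-cell lists are short, and nothing particular to them is read from the counts.

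The 12 members below 50 UMIs were mostly Hes genes. In nuclei with at least 1500 genes, hes6.2 had 48 UMIs, just under the limit, and jag2 with 74 was the lowest above it. Then came hes5.8 with 35, hey2 with 32, hes2 with 28, hes3 with 25, hes5.5 with 19, hes5.1 with 16, hes5.7 with 14, dll4 with 12 and hes5.3 with 6 UMIs, and hes5.2 and hes5.4 had 0. Once doublets were removed, 14 of the 30 UMIs of hes5.8 lay in outer and 3 in inner ectoderm-like nuclei, and 9 of the 21 UMIs of hes3 lay in the LOC108648189 cluster.

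Several Hes genes lie side by side in the assembly UCB_Xtro_10.0. An array of 7 hes5 copies, from hes5.3 to hes5.10, lies on chromosome 7 between 99488395 and 99572713, within 84.3 kb. The 2 of them that passed 50 UMIs, hes5.9 and hes5.10, are neighbours 11.1 kb apart at one end of the array, and hes5.8 lies 0.786 kb from hes5.9. A further pair, hes5.1 and hes5.2, are 17.8 kb apart elsewhere on chromosome 7. The genes hes7.2 and hes7.1 are 37.9 kb apart on chromosome 3, and hes6.1 and hes6.2 are 21.8 kb apart on chromosome 5. How alike these copies are was not measured, and the handling of reads that fit several of them was not given in the sources used here.

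For the 4 members with the widest range over the states, the 3 most similar of 5917 other genes were found by the correlation of log2(CPM + 1) over 14 states. The genes closest to hes5.10 were csnk1d (r = 0.97), LOC100495980 and mylk4, and those closest to dll1 were kdsr (r = 0.97), ism1 and rara. Closest to hes7.2 were svip (r = 0.96), adam33 and slc12a1, and to hes1 rnd1 (r = 0.84), fzd8 and acap3.

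Neighbouring states in the order of levels often could not be told apart. Of the 13 neighbouring pairs of states, the intervals overlapped in 6 for notch1, 7 for dll1, 10 for jag1, 9 for hes7.2 and 11 for hes5.10. For rfng, hey1 and jag2 even the highest and the lowest state had overlapping intervals.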

How the data were processed

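Reads were aligned to UCB_Xtro_10.0 by the authors, with the default settings of Parse Batch Analysis 1.1.4. The deposited values are unfiltered, unnormalised UMI counts per barcode and gene, with both sublibraries in 1 matrix, and the labels also name Seurat and Scanpy 1.9.6. The handling of reads that fit several genes was not given in the sources used here.

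Barcodes with at least 1500 genes were kept, the minimum the study states. There were 8474 of them, fewer than the nuclei the study states. Scrublet, run per sublibrary in scanpy 1.11.5, called 0 doublets automatically, so nuclei with a score above 0.15 were removed (9.25%). After scaling to 10000 counts and log transformation, 2000 variable genes without the members and pathway partners, 30 principal components, 15 neighbours and Leiden clustering (leidenalg 0.10.2, resolution 1) gave the clusters. Names were rebuilt from marker lists, and that naming rule was set after marker scores and a first look at member values; shares can differ from the study's.

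Summed counts per state were divided by the state's total (CPM). Log2 ratios used CPM + 1, and a call is a change of at least 2-fold, with no test. Poisson and binomial (Clopper-Pearson) intervals were exact at 95%. A count of 0 was bounded by 3 counts over the group. Scripts were tested on simulated data. All 33 members matched a RefSeq entry. Named genes were every member, with those under 50 UMIs given by count only, plus the 3 genes most like each of 4 members. Genes of the pathway, proneural, paraxial, ciliated-cell and germ plasm lists fall outside that rule, and those named were chosen after their values were seen. The members, lists and markers were chosen with earlier results of these data known. Alternatives changed the gene minimum, doublet removal, variable genes, resolution, seed, pseudocount, UMI minimum, fold and sublibrary. No per-sample column was left unused.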

Additional observations from a re-analysis of the deposited data

How the results depend on the processing

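No paired analysis was possible because the 2 sublibraries belong to 1 group. Of the 27 gene ratios called 2-fold by germ layer, ectoderm layer or mesoderm side, 26 kept their sign under all alternatives run and 10 stayed past 2-fold under all of them. Changes of the UMI minimum and of the fold leave a ratio unchanged, so those settings could not alter either number. The exception in sign was hes1 by mesoderm side, at 2.12 in the main analysis. It was -0.24 with a minimum of 1000 genes, -0.42 without doublet removal, -0.97 with 4000 variable genes, -0.32 with another seed and -0.23 with the rspo3 cluster as ventral mesoderm. That last alternative, and the use of the fes cluster alone as outer ectoderm, were chosen after seeing the data.

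Counts of members by germ layer (4 higher, 6 lower in ectoderm-like nuclei) moved to 1 higher with a minimum of 2000 genes, 2 higher with 1000 variable genes and 10 lower at 1.5-fold. By ectoderm layer (13, of which 8 higher and 5 lower in inner nuclei) they moved to 7, with 3 higher, with a minimum of 2000 genes, and to 3 lower with a pseudocount of 10 CPM.

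By mesoderm side (4, of which 1 higher and 3 lower in dorsal nuclei) few counts held. The total was 1 with a minimum of 1000 genes (0 higher, 1 lower) and with a pseudocount of 10 CPM (0 higher, 1 lower). It was 2 with members and pathway partners kept in the clustering (0 higher), at resolution 0.5 (1 lower), with another seed (0 higher), with a 200 UMI minimum (1 lower) and with the rspo3 cluster as ventral mesoderm (0 higher), and 7 at 1.5-fold (2 higher, 5 lower). Genes higher in dorsal nuclei numbered 2 with a minimum of 2000 genes, a doublet score above 0.12, 4000 variable genes (1 lower) or no UMI minimum, and 0 at resolution 2 (5 lower). Leaving out either sublibrary gave 2 higher, a range of 2 to 2, but only hes1 was among them both times. The cause of these moves was not tested. Ventral mesoderm-like nuclei numbered from 90 to 2640 over the clusterings, against 567 in the main analysis. Members with few UMIs, such as hey1, jag2 and hes7.1, are limited by depth.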
